A study of Arabidopsis thaliana with 24 samples.

Results

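The chloroplast genome genes of Arabidopsis (Arabidopsis thaliana) were taken as all rows whose identifier starts with ATCG and that were listed in at least 1 library. There were 119 such genes among the 26405 genes listed in any library. RNA-Seq was run on roots and shoots of neo-tetraploids (4n) and their diploid (2n) progenitor in the Col-0 background, both of them wild type, grown on plates with or without 35 mM added NaCl for 2 weeks. This gave 8 groups of 3 libraries, 24 in all: 4n NaCl, 4n Control, 2n NaCl and 2n Control shoots, and the same 4 groups of roots. Each library held pooled plants, and all replicates came from 1 experiment, so p-values measure the spread between pools of plants within that experiment. The expected counts, which are estimates of the reads that come from each gene, summed to between 11202503 and 11909554 per library.

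Chloroplasts keep a small genome of their own. It encodes core subunits of the photosystems, the cytochrome b6f complex, the ATP synthase, the NDH complex and the large subunit of Rubisco, and also part of the machinery that reads it, namely the core of a bacterial-type RNA polymerase (the rpo genes), ribosomal proteins, rRNAs and tRNAs. A nucleus-encoded phage-type polymerase also transcribes plastid genes, among them the rpo genes, while the bacterial-type polymerase transcribes photosynthesis genes such as psbA and rbcL with the help of nucleus-encoded sigma factors. Roots hold plastids as well, mostly non-green ones. The libraries were enriched for polyadenylated RNA, and most plastid transcripts carry no stable poly(A) tail, so the values below are those of plastid RNA carried through that enrichment.

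The files give only identifiers. Gene names were assigned by matching the deposited gene lengths and the order of neighbours to the RefSeq gene table of the TAIR10.1 assembly, which named 79 genes by length and 13 by length and neighbours, and 1 more (ycf3) from the study's own gene table. The other 26 genes are called by identifier, and 17 of them have the length of a tRNA. By role, the named and tRNA-length genes were 15 of photosystem II, 5 of photosystem I, 6 of cytochrome b6f, 6 of ATP synthase, 9 of NDH, 1 of Rubisco, 4 of RNA polymerase, 23 of ribosomal proteins, 8 of rRNA, 23 of tRNA and 10 with other roles, and 9 had no assigned role. Leaving out genes of tRNA length, 10 pairs are identical copies in the inverted repeat. The counts of such a pair were split evenly by the authors' estimation, so a pair is 1 measurement. Counts of members given below take both rows of a pair. Some rows of tRNA length, such as ATCG00910.1 and ATCG01220.1, also have equal counts in every library and were not paired here. The unnamed ATCG00905 and ATCG01230 are not among the 10 pairs. They have the same length, but their counts are equal in some libraries and unequal in others. Reads were unstranded, so psbN, antisense to its neighbours, and the overlapping pairs psbD and psbC and atpB and atpE are uncertain.

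The organ labels were checked with marker genes. Over 4 green-tissue genes (RBCS1A, LHCB1.1, LHCB2.1 and CA1), the summed FPKM (reads scaled to gene length and library depth) was 13389 to 25570 in shoots, against 23.7 to 97.0 in roots. Over 4 root genes (PYK10, CASP1, ESB1 and PIN2), it was 152 to 311 in shoots, against 4297 to 8103 in roots. No library went against its label. In shoot libraries 94 to 103 of the 119 chloroplast genes were listed, against 61 to 72 in root libraries. A total of 36 genes were listed in all 24 libraries, 14 in no root library and 1 (ATCG00100.1, of tRNA length) in no shoot library.

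Chloroplast genes took 3.24% to 6.34% of the expected counts of shoot libraries, against 0.0868% to 0.160% of those of root libraries. The shoot share was 29.1 times the root share in 4n NaCl plants, 42.6 times in 4n Control plants, 45.4 times in 2n NaCl plants and 60.0 times in 2n Control plants. Every shoot library lay far above every root library, and fewer plastids or green cells in roots and less plastid RNA per cell cannot be told apart in these bulk samples. The chloroplast rRNAs made up 95.6% to 97.7% of the chloroplast counts in all libraries. This left 12111 to 23084 chloroplast counts other than rRNA in a shoot library, against 368 to 703 in a root library, so most single genes in roots were measured by few reads.

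**Figure D1:**
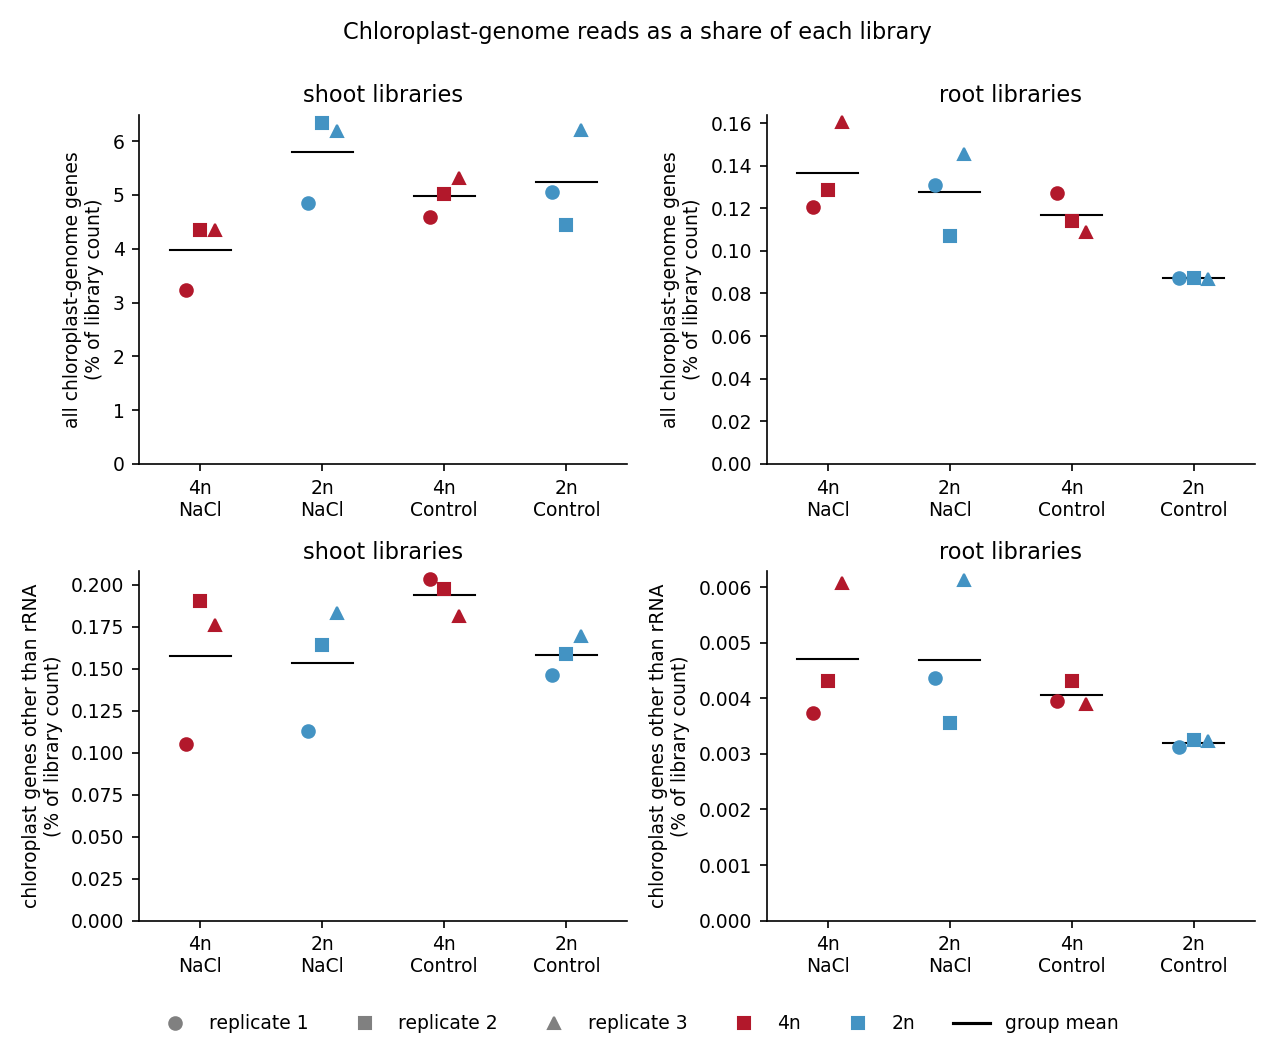
Chloroplast share of the library in percent, for all chloroplast genes and for those other than rRNA, in each of the 24 libraries by group (points are libraries, short lines are group means, shoots left of roots). Shoot libraries lie between 3.24% and 6.34% and root libraries between 0.0868% and 0.160% for all chloroplast genes.

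Within shoots, the share was lowest in neo-tetraploids with NaCl. It was 3.24%, 4.34% and 4.35% in 4n NaCl shoots, against 4.85%, 6.34% and 6.19% in 2n NaCl shoots, a log2 difference of -0.55 with no overlap. It was 4.58%, 5.01% and 5.32% in 4n Control shoots, against 5.05%, 4.44% and 6.20% in 2n Control shoots, and these overlap. The 4n NaCl shoots also lay below the 4n Control shoots without overlap (log2 difference -0.33), while the 2n NaCl and 2n Control shoots overlap. Mitochondrial genome genes took 0.101% to 0.141% of the counts in 4n NaCl shoots, against 0.155% to 0.193% in 4n Control shoots, and their part in that difference was not tested.

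The shoot difference between the ploidies with NaCl lay in the rRNA genes. Without the rRNA genes the chloroplast share averaged 0.157% in 4n NaCl shoots and 0.153% in 2n NaCl shoots, a log2 difference of 0.02 with overlap. Against 4n Control shoots, the 4n NaCl shoots were lower in both parts. The log2 difference there was -0.33 for the rRNA genes without overlap, and -0.35 for the genes other than rRNA with overlap. With Control medium the genes other than rRNA took 0.203%, 0.197% and 0.181% in 4n shoots, against 0.146%, 0.159% and 0.169% in 2n shoots, a log2 difference of 0.30 with no overlap, although the share of all chloroplast genes overlaps there. Nuclear-encoded rRNA took 2.37% to 3.21% of the counts in 4n NaCl shoots, against 2.99% to 4.01% in 2n NaCl shoots, and its part in the chloroplast rRNA difference was not tested.

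Within roots, the share was lowest in diploids without NaCl. It was 0.127%, 0.114% and 0.109% in 4n Control roots, against 0.0874%, 0.0873% and 0.0868% in 2n Control roots, a log2 difference of 0.42 with no overlap. It was 0.131%, 0.107% and 0.145% in 2n NaCl roots, a log2 difference of 0.54 from 2n Control roots, again with no overlap. The 4n NaCl roots had 0.121%, 0.128% and 0.160%, and these overlap with both the 2n NaCl roots and the 4n Control roots.

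Other values moved with the root difference between the ploidies. Mitochondrial genome genes took 0.604% to 0.629% of the counts in 4n Control roots, against 0.346% to 0.388% in 2n Control roots, and nuclear-encoded rRNA took 5.39% to 5.83% in 4n Control roots, against 3.33% to 4.3% in 2n Control roots. For NaCl in diploids, mitochondrial genome genes took 0.410% to 0.612% in 2n NaCl roots, again above the 2n Control roots. Nuclear-encoded rRNA took 3.40% to 5.69% in 2n NaCl roots, which overlaps with the 2n Control roots. The part of these genes in the chloroplast differences was not tested. The 4 green-tissue genes did not move the same way: their summed FPKM was 23.7 to 49.0 in 4n Control roots, against 44.4 to 75.4 in 2n Control roots. With NaCl their sum was 56.2 to 92.7 in 4n roots and 48.2 to 97.0 in 2n roots.

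Which chloroplast genes differ between the organs was tested gene by gene in edgeR over all 24 libraries. Of the 119 genes, 71 had at least 10 counts in at least 3 libraries and were tested among 21338 genes, and 48 were too low. A call needed both an adjusted p below 0.05 and at least a 2-fold difference. In shoots against roots, 71 of the 71 were called in 4n NaCl, 70 in 4n Control, 71 in 2n NaCl and 71 in 2n Control plants, all of them higher in shoots. Over all genes tested, 21.6%, 22%, 21.6% and 21.2% were called higher in shoots in these comparisons. Most of the 71 passed the filter only through their shoot counts. The count was therefore also made over the 22 that passed in roots alone, and all 22 were called in each of the 4 comparisons. These 22 hold both rows of rpl2, ycf2, rrn16S, rrn23S and rrn4.5S, and each such pair is 1 measurement. The 1 exception among the 71 was ATCG00905, with 0, 0 and 10.5 counts in 4n Control shoots, against 0, 3 and 0.5 in 4n Control roots (log2 2.05, SE 1.36, adjusted p = 0.193). ATCG01230, the row of the same length, was called there. It had 26, 28 and 31.5 counts in these shoots and the same root counts as ATCG00905. The division of reads between these rows was not tested, so the exception is one of a row.

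Across all 119 genes, including those not tested, the mean count was higher in shoots for 113. For 71 of the 119 all shoot libraries lay above all root libraries, against 11.7% of all 26405 listed genes. The median log2 fold change of the tested members was 4.59 to 4.95 in the 4 comparisons, against -0.06 to -0.02 over all genes tested. With members that had 0 counts in every root library of the group set to their lower bound, the median was 4.40 to 4.79. Members with a few root counts kept their edgeR value in this median.

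**Figure D2:**
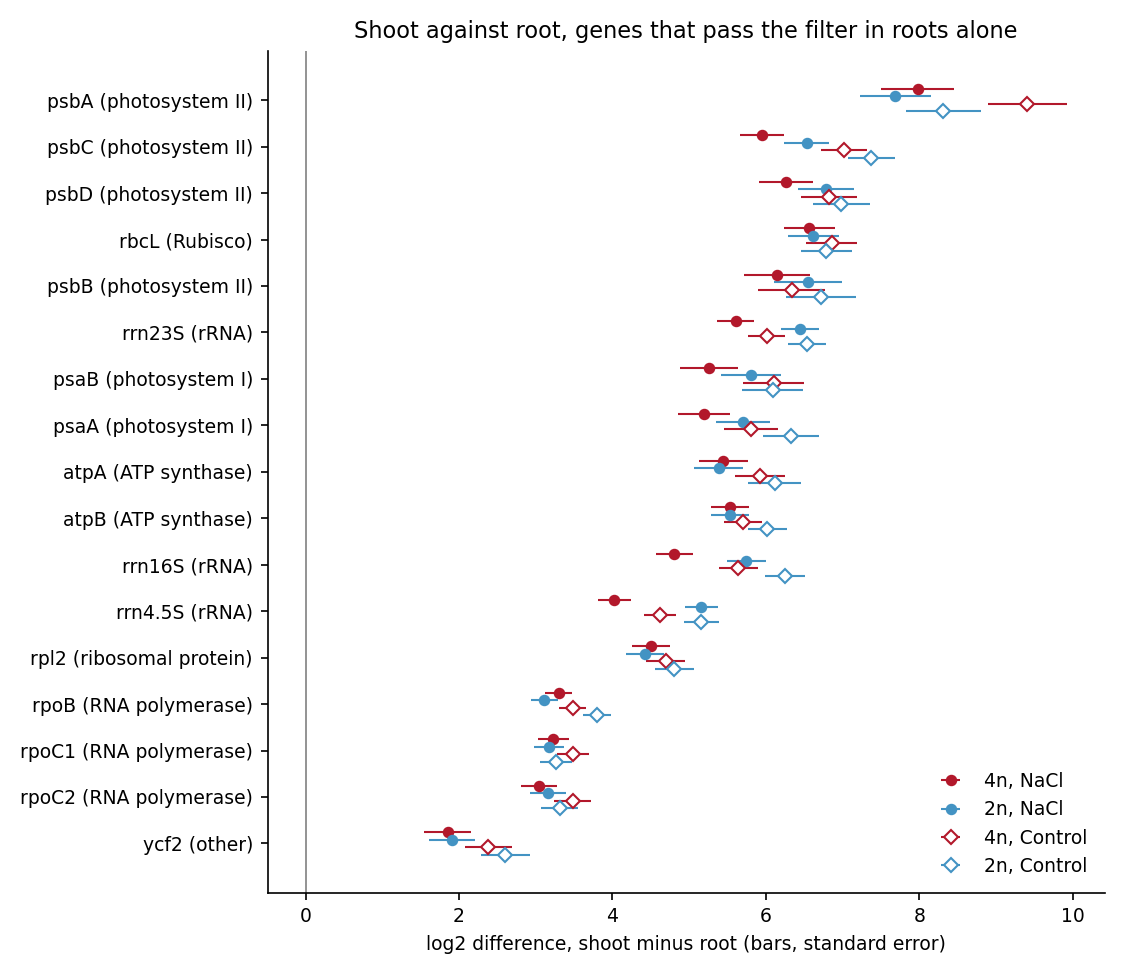
Log2 fold change of shoot over root, with its standard error, for the chloroplast genes that passed the count filter in roots alone, with 1 point for each combination of ploidy and treatment and inverted-repeat copies shown once. Values run from psbA at 7.69 to 9.41 down to ycf2 at 1.85 to 2.60.

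Photosystem II genes held the largest of these differences. The gene psbA encodes the D1 protein of the reaction centre, which is rapidly turned over in the light. It had 1996 counts in the lowest shoot library, a median of 3869 and 6805 in the highest, against a lowest of 7, a median of 17.8 and a highest of 35.6 in roots. Its log2 fold change was 7.98 (SE 0.47) in 4n NaCl, 9.41 (SE 0.51) in 4n Control, 7.69 (SE 0.47) in 2n NaCl and 8.31 (SE 0.49) in 2n Control plants, with an edgeR adjusted p of at most 1.03e-11. No root library came near the shoot libraries, and per length psbA was also the most abundant chloroplast mRNA of shoots, at 165 to 550 FPKM, while in roots it had 0.580 to 2.95 FPKM.

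The other large subunits of photosystem II were higher in shoots too. The genes psbC and psbD, for the CP43 antenna and the D2 protein, overlap each other and had log2 fold changes of 5.95 to 7.38 and 6.27 to 6.98. The antenna gene psbB (CP47) had 6.14 to 6.72. In counts, psbC had a lowest of 1677, a median of 2761 and a highest of 3257 in shoots, against 22, 35.4 and 73 in roots. All 3 genes were called in each combination of ploidy and treatment, and their organs did not overlap.

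Rubisco, ATP synthase and photosystem I subunits were also higher in shoots. The gene rbcL, for the large subunit of Rubisco, which fixes CO2, had a lowest of 2112, a median of 2874 and a highest of 3999 counts in shoots, against 29.6, 38.5 and 62.5 in roots, and its log2 fold change was 6.57 to 6.86, within the range of psbC. The gene psaA, for 1 of the reaction centre proteins of photosystem I, had 1070, 2074 and 2867 counts in shoots, against 32, 48.5 and 88 in roots, a log2 fold change of 5.19 to 6.32. Its partner psaB had 5.26 to 6.10, and the ATP synthase subunits atpA and atpB had 5.39 to 6.12 and 5.53 to 6.02. These genes rose together in shoots, and psaA, psaB and rbcL were also the members with the most counts in roots after the rRNAs.

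Among the smaller photosynthetic complexes, root counts were too low for a stable fold change. The NDH genes ndhJ and ndhK had 21 to 63 and 29 to 80 counts in shoots, against 0 to 2 and 0 to 1 in roots. Pooled over the 3 libraries of a group, ndhK had 157 counts in 4n NaCl shoots and 2 in 4n NaCl roots, a ratio of 76.8 with an exact 95% interval of 20.9 to 640 for counting error only. In 4n NaCl plants ndhJ was at least 12.5-fold higher and psaJ, a small photosystem I subunit, at least 20.8-fold higher in shoots, taking 3 counts per library as the floor of the roots, which had 0. The cytochrome b6f gene petA had log2 fold changes of 3.93 to 4.40. Its partner petB had 74, 71 and 100 counts in 2n NaCl shoots, against 1 in each 2n NaCl root library, a ratio of 82.5 with an exact 95% interval of 27.9 to 403. Among the genes not tested were ndhE, ndhF, ndhG and ndhI and the small cytochrome b6f subunits petG, petL and petN, with at most 14 counts in any library.

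Genes of the expression machinery differed less between the organs. The gene rpoB, for the β subunit of the plastid-encoded RNA polymerase, had a lowest of 203, a median of 240 and a highest of 321 counts in shoots, against 23, 32.5 and 48 in roots. Its log2 fold change was 3.30 (SE 0.18) in 4n NaCl, 3.48 (SE 0.18) in 4n Control, 3.11 (SE 0.17) in 2n NaCl and 3.80 (SE 0.18) in 2n Control plants, with an edgeR adjusted p of at most 2.77e-12. The other subunits rpoC1, rpoC2 and rpoA had 3.17 to 3.49, 3.04 to 3.48 and 3.16 to 3.90. So the polymerase genes rose in shoots too, with log2 fold changes below those of every photosynthesis gene that passed in roots alone. Some photosynthesis genes that did not pass in roots alone came closer, such as petA at 3.93 to 4.40. The psbN counts were 0 in every 4n root library. With the floor of 3 counts per library, its lower bounds were 3.70-fold in 4n NaCl and 4.08-fold in 4n Control plants, so psbN is not placed here.

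The ribosomal protein genes spread more widely. Of 23, 19 were tested. The log2 fold change of rps4 was 2.53 to 3.23 and that of rps14 was 4.79 to 6.22. For rpl32, with 5, 8 and 17 counts in 2n NaCl shoots and 0 in all 2n NaCl roots, only a lower bound of 3.36-fold can be given there, with the floor of 3 counts per library. Only rpl2, which is present in both copies of the inverted repeat, passed in roots alone, with 4.43 to 4.81. Each rpl2 copy had 136.5 to 207.5 counts in shoots, against 6 to 15 in roots, and the groups did not overlap.

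Among the genes that passed in roots alone, the smallest differences were those of ycf2, a very long gene whose protein belongs to a protein import motor of the chloroplast envelope. Each copy had a lowest of 31, a median of 40.5 and a highest of 69.5 counts in shoots, against 8.5, 13.5 and 23 in roots. Its log2 fold change was 1.85 (SE 0.31) in 4n NaCl, 2.38 (SE 0.30) in 4n Control, 1.90 (SE 0.30) in 2n NaCl and 2.60 (SE 0.32) in 2n Control plants, and it was called in all 4. For clpP, the proteolytic subunit of the plastid Clp protease, the difference was 3.58 to 5.20. The gene accD, for a subunit of the acetyl-CoA carboxylase that starts fatty acid synthesis, was too low to be tested. It had 2 to 10 counts in shoots, against 1 to 6 in roots, and the organs overlap.

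The large rRNA genes differed by amounts like those of the photosystem I genes. Summed over both copies, rrn23S took 2.22% to 4.53% of the counts of shoot libraries, against 0.0545% to 0.0900% in roots, and rrn16S took 0.908% to 2.08% in shoots, against 0.0264% to 0.0642% in roots. Their log2 fold changes were 5.61 to 6.54 and 4.81 to 6.25, and that of rrn4.5S was 4.03 to 5.16. The tRNA genes were mostly at 0 or a few counts, and only 1 of 23 (trnS, ATCG00290.1) was tested.

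Because the amount of chloroplast RNA differed so much, the make-up of that RNA was also compared, as the share of each gene in the chloroplast counts other than rRNA. Photosystem II genes took 43.8% ± 2.8 of these counts in shoots and 17.1% ± 2.2 in roots (SD over 12 libraries each). Rubisco took 15.7% ± 1.6 in shoots and 8.72% ± 1.6 in roots. Photosystem I took 21.5% ± 3.4 in shoots and 22.6% ± 2.2 in roots. The RNA polymerase genes took 2.66% ± 0.42 in shoots and 15.2% ± 2.9 in roots, and the ribosomal protein genes 4.72% ± 0.65 in shoots and 14.2% ± 2.2 in roots. Genes with other roles, in roots mostly ycf2, took 0.990% ± 0.18 in shoots and 8.78% ± 1.6 in roots.

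Taking all photosynthesis genes as 1 group, their share was 88.0% to 92.4% in shoots, against 55.0% to 68.0% in roots. The libraries of the organs did not overlap for photosystem II, Rubisco, RNA polymerase, ribosomal protein or other genes, and they overlapped for photosystem I. Shares within a library sum to 100%, so a gene can take a smaller share in shoots while its count is higher there, as all the rpo genes did.

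The make-up was tested in edgeR with each library scaled by its chloroplast counts other than rRNA. This test was chosen after seeing the data. At an adjusted p under 0.05, 5 members took a higher and 28 a lower share in shoots in 4n NaCl plants, 4 and 29 in 4n Control, 7 and 23 in 2n NaCl, and 4 and 29 in 2n Control. Among the 22 that passed in roots alone, 3 were higher and 11 lower in 4n NaCl, and 4 and 9 in 4n Control. In 2n NaCl these were 7 and 7, and in 2n Control 4 and 9. The 7 higher in 2n NaCl hold both rows of rrn23S, which are 1 measurement. The lower counts hold both rows of rpl2 and of ycf2 in every combination, and each such pair is also 1 measurement. On this scale 2.09%, 1.84%, 1.93% and 1.61% of all genes tested were higher in shoots, and 94.2%, 94.7%, 94.7% and 95.1% were lower, since scaling to chloroplast counts puts nearly every nuclear gene lower. The backgrounds therefore say little about the members, and the counts among members are read by name.

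In all 4 combinations 3 members took a higher share in shoots. They were psbA, with a log2 difference in share of 2.00 to 3.34, psbD with 0.74 to 1.09 and rbcL with 0.64 to 1.01. The share of psbA was 16.5% to 30.4% in shoots, against 1.56% to 6.46% in roots. The gene psbC was higher in 3 of the 4 combinations, with 0.44 (adjusted p = 0.0870 in edgeR) in 4n NaCl plants.

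In all 4 combinations 18 members took a lower share in shoots, counting both copies of repeated genes. They were the 4 rpo genes, 11 rows of ribosomal protein genes (among them both copies of rpl2 and rps7), both copies of ycf2 and 1 of the rows of ycf1. The largest of those that passed in roots alone was ycf2, at -3.54 to -3.75. The rpoB share was 1.04% to 1.80% in shoots, against 4.43% to 10.6% in roots, a log2 difference of -2.26 to -2.60, and those of rpoC1 and rpoC2 were -2.30 to -2.87 and -2.51 to -2.84. Some photosynthesis genes that did not pass in roots alone were also lower in part of the combinations. They were petA in all but 4n NaCl, atpI in 4n NaCl and 2n NaCl, and atpF in 4n NaCl. No gene was called higher in 1 combination and lower in another. Of the 22 rows that passed in roots alone, 3 were higher and 7 lower in all 4, and the 7 hold both copies of rpl2 and ycf2. In 2n Control plants the counts were 2 higher and 19 lower without replicate 3 of the roots.

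The photosystem I genes psaA and psaB, and atpA and atpB, were not called in any combination on this scale. Their log2 differences in share were -0.36 to 0.16 for psaA, -0.29 to 0.11 for psaB, -0.28 to -0.02 for atpA and -0.38 to 0.09 for atpB, with standard errors of 0.26 to 0.37. These genes took about 10.7%, 10.5%, 2.14% and 4.31% of the counts in shoots and 11.6%, 10.8%, 2.32% and 4.74% in roots.

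Differences by ploidy and by NaCl were tested within each organ. The tests held 22 members of 20239 genes in roots and 71 members of 19174 genes in shoots. In the main edgeR test 0 members were called in each of the 8 comparisons of 1 factor and in both interactions. Below an unadjusted p of 0.05, roots held 5 for 4n against 2n with Control medium, 0 for 4n against 2n with NaCl, 5 for NaCl against Control in 2n, 3 for NaCl against Control in 4n and 0 for the interaction. In shoots these counts were 7, 11, 3, 11 and 7. The share of all genes under this unadjusted limit is not given here, so these counts are not read as a result about the members. In limma on FPKM 0 were called in all 10, and in DESeq2 0 were called in all but 2 of them, in each of which it called both copies of rrn4.5S. A further edgeR fit that carried the replicate number as a block called 1 member, psbA for NaCl against Control in 4n roots. The share of all genes called in that fit is not given here. Over all genes in the main edgeR test, 0.993%, 0.124%, 2.82%, 2.38% and 0% were called in roots. In shoots these were 0.0104%, 0.0104%, 0%, 0.0104% and 0%, so hardly any gene was called in shoots.

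**Figure D3:**
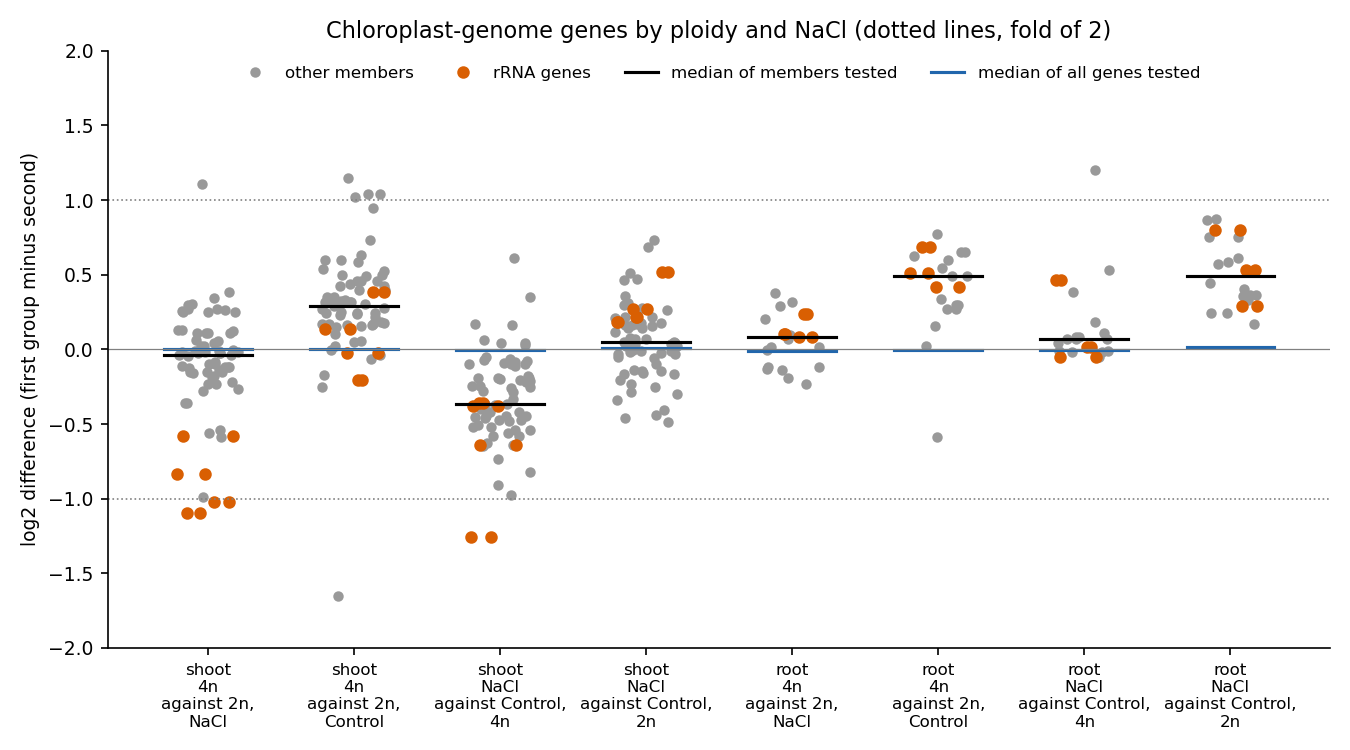
Log2 fold changes of the tested chloroplast genes in the 8 comparisons of ploidy and NaCl within an organ, 1 point per gene with the median marked. The medians run from -0.36 (NaCl against Control in 4n shoots) to 0.49 (4n against 2n in Control roots, and NaCl against Control in 2n roots), and no point was called in the main edgeR test.

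In roots the members lay to 1 side in 2 comparisons. For 4n against 2n with Control medium, 21 of 22 log2 fold changes were positive, with a median of 0.49 against -0.01 over all genes. For NaCl against Control in 2n, all 22 were positive, with a median of 0.49 against 0.02. Both comparisons share the 2n Control roots, which had the lowest chloroplast shares, and genes of 1 plastid transcript pool are not independent of each other. The 22 also count both rows of rpl2, ycf2, rrn16S, rrn23S and rrn4.5S, so they hold fewer measurements than rows. With NaCl the ploidy difference in roots had a median of 0.08, and NaCl against Control in 4n had 0.07, with 15 of 22 positive in each.

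The root gene nearest to a call was rrn16S. Both copies together took 0.0477%, 0.0411% and 0.0621% of the counts in 2n NaCl roots, against 0.0264%, 0.0271% and 0.0290% in 2n Control roots, with no overlap. Its log2 fold change was 0.80 (SE 0.18, adjusted p = 0.0164 in edgeR), under the 2-fold difference that a call asked for. By an adjusted p below 0.05 alone, 9.64% of all genes tested in this comparison passed. Without replicate 2 of the 2n Control roots the adjusted p was 0.0686, and without replicate 3 of the 2n NaCl roots the fold change was 0.59 and the adjusted p was also above 0.05. The larger rRNA, rrn23S, was at 0.51 (SE 0.13, adjusted p = 0.0621) for 4n against 2n in Control roots and 0.29 (adjusted p = 0.185) for NaCl against Control in 2n roots.

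The ratio of the 2 large rRNAs did not overlap between NaCl and Control roots. The count of rrn23S was 1.83, 1.70 and 1.40 times that of rrn16S in 4n NaCl roots, against 2.42, 2.29 and 1.87 times in 4n Control roots. It was 1.65, 1.51 and 1.24 times in 2n NaCl roots, against 2.19, 2.1 and 1.88 times in 2n Control roots. This held in both ploidies, while in shoots the ratio ran from 1.89 to 3.23 and the groups overlap. In every root group replicate 3 had the lowest ratio. The pattern was noticed in the data and was not tested.

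The psbA counts in roots were low. They were 18.3, 24.5 and 29.3 in 4n NaCl roots, against 7, 12.6 and 10.4 in 4n Control roots, with no overlap. They were 23.8, 17.3 and 35.6 in 2n NaCl roots, against 9, 14.7 and 23.8 in 2n Control roots, and these overlap. The log2 fold change in 4n was 1.20 (SE 0.42, adjusted p = 0.115 in edgeR), which does not pass the main test. With the replicate number carried as a block, it was 1.20 with an edgeR adjusted p of 0.0402 and was called.

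In shoots the members spread around different medians. For 4n against 2n with Control medium, 61 of 71 log2 fold changes were positive, with a median of 0.29. For NaCl against Control in 4n, 8 of 71 were positive, with a median of -0.36. The medians were -0.04 for 4n against 2n with NaCl and 0.05 for NaCl against Control in 2n, and over all genes the 4 medians were within 0.02 of 0. The lowest adjusted p in these 4 comparisons was 0.114.

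That lowest value was of rrn4.5S, a small rRNA cut from the end of the 23S precursor. Each copy had 82.5, 98.5 and 134 counts in 4n NaCl shoots, against 176, 198.5 and 210.5 counts in 2n NaCl shoots, with no overlap. In 4n Control shoots it had 160.5, 152 and 153 counts, against 155, 137.5 and 134 in 2n Control shoots. The log2 fold change of 4n over 2n with NaCl was -1.02 (SE 0.15), with an adjusted p of 0.114 in edgeR and 7.37e-06 in DESeq2. The larger rRNAs also had negative values: rrn16S was at -0.84 (SE 0.20) and rrn23S at -0.58 (SE 0.21), both with an edgeR adjusted p of 0.993. The rrn4.5S counts are small beside those of rrn23S, at 0.530 to 2.90 per 1000 of them.

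**Figure D4:**
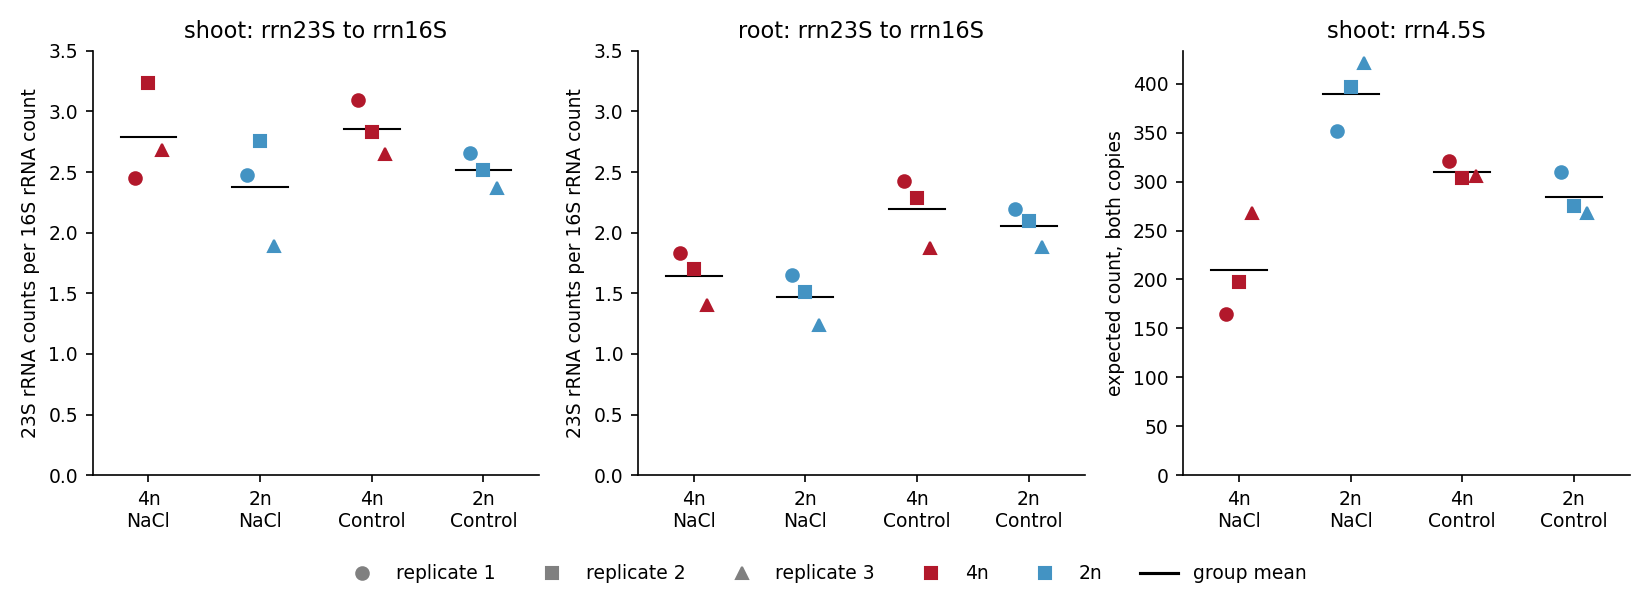
Ratio of rrn23S to rrn16S counts in shoot and root libraries by group, and rrn4.5S counts of both copies in shoot libraries, 1 point per library. Root ratios are 1.40 to 1.83 in 4n NaCl against 1.87 to 2.42 in 4n Control, and 1.24 to 1.65 in 2n NaCl against 1.88 to 2.19 in 2n Control.

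For psaA the shoot groups overlap. It had 1070, 1741 and 2440 counts in 4n NaCl shoots, against 1212, 1876 and 2758 in 2n NaCl shoots, and 2867, 2129 and 2359 in 4n Control shoots, against 1750, 2019 and 2498 in 2n Control shoots. Taken by replicate number, 4n was the lower in 3 of 3 pairs with NaCl and in 1 of 3 with Control medium. Replicate 1 was the lowest of the NaCl shoots in both ploidies. For psbA the counts were 1996, 6805 and 4336 in 4n NaCl shoots, against 2282, 3699 and 3978 in 2n NaCl shoots, again lowest in replicate 1. In roots, replicate 3 was the highest of the NaCl roots in both ploidies, with 88 psaA counts in 4n and 82 in 2n, against at most 60 in the other NaCl roots. Mitochondrial genome genes were also highest of their groups in these libraries, at 0.740% of the counts in 4n and 0.612% in 2n. The same held for nuclear-encoded rRNA, at 7.29% in 4n and 5.69% in 2n. RBCS1A, a nuclear gene for the small subunit of Rubisco, did not share that high, with 47.3 FPKM in 4n NaCl root replicate 3 and 46.6 in 2n NaCl root replicate 3, the lowest of their groups.

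Among rows of low genes the shoot fold changes by ploidy ran both ways. The unnamed ATCG00905 had 0, 0 and 10.5 counts in 4n Control shoots, against 8.4, 10 and 14.5 in 2n Control shoots, a log2 fold change of -1.65 (SE 1.04, edgeR adjusted p = 0.664). ATCG01230, a row of the same length, went the other way, with 26, 28 and 31.5 counts against 12.6, 15 and 14.5. How reads were divided between these rows was not tested, so neither row alone gives a direction. The NDH gene ndhA had 14, 12 and 7 counts in 4n NaCl shoots, against 5, 5 and 4 in 2n NaCl shoots. It had 10, 13 and 8 in 4n Control shoots, against 5, 5 and 4 in 2n Control shoots. The groups did not overlap in either treatment, and the log2 fold changes were 1.11 and 1.15, with edgeR adjusted p of 0.993 and 0.467. The gene cemA, for an envelope membrane protein, was at 1.02 (adjusted p = 0.464) with Control medium. The ndhA, cemA and ATCG00905 values were singled out after they were seen.

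On the scale of chloroplast counts, 0 members were called in edgeR within either organ in any of the 10 comparisons. Below an unadjusted p of 0.05 the most was 6, in 4n against 2n shoots with NaCl, again without the share of all genes at that limit. No other tool was run on this scale. Over all genes tested, 1.74%, 0.39%, 10.5%, 3.54% and 0.371% passed in roots and 0.0104%, 0.0104%, 0.0209%, 0.141% and 0% in shoots, in the order of comparisons given above. The mean share of photosystem II genes was 43.9% in 4n NaCl, 44.6% in 4n Control, 43.1% in 2n NaCl and 43.4% in 2n Control shoots. In roots it was 18.8% in 4n NaCl, 15.2% in 4n Control, 17.7% in 2n NaCl and 16.5% in 2n Control, and the 4n NaCl roots (18.03% to 20.3%) did not overlap with the 4n Control roots (14.5% to 15.6%).

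Nuclear genes that act with the chloroplast genome were set beside it, as a list of 20 genes of plastid transcription and a list of 18 genes for subunits of the same complexes. In shoots against roots, 18 of the 20 transcription genes were called higher in all 4 combinations, against 21.2% to 22% of all genes tested. The sigma factor genes SIG1, SIG2, SIG3, SIG4 and SIG6, the polymerase gene RPOTp and the 12 PAP genes, for proteins bound to the plastid-encoded polymerase, were these 18, and the lowest log2 fold change was 1.54 (RPOTp). SIG4 had 26.0 to 58.4 FPKM in shoots, against 0 to 0.24 FPKM in roots, which is too low for a fold change. SIG2 averaged 65.1 ± 8.3 FPKM in shoots and 7.04 ± 1.2 FPKM in roots (SD over 12 libraries each). The exceptions were RPOTmp, a phage-type polymerase shared by mitochondria and plastids, at -0.97 to -0.10, and SIG5 at -0.06 to 0.55.

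All 18 genes of the partner list were called higher in shoots in each combination, at 5.95 (ATPD) to 12.96 (RBCS3B) on the log2 scale, above the 3.04 to 3.90 of the rpo genes. Only 15 of them passed the filter in roots alone. RBCS3B had 0.43 to 1.05 FPKM in 4n Control roots, and NDHM had 0 to 0.1 FPKM in all roots. The largest of these fold changes are therefore unstable. The member rbcL was at 6.57 to 6.86, and the 4 genes of the Rubisco small subunit at 7.92 to 12.96. Within an organ few genes of the lists were called. Over all genes tested, 0.993% were called for 4n against 2n Control roots. For NaCl against Control, 2.38% were called in 4n roots and 2.82% in 2n roots. The median log2 fold change of the 15 partner genes tested in roots was -0.64 for 4n against 2n Control roots, with 1 called lower, and 0.80 for NaCl against Control in 4n roots, with 1 called lower, against -0.01 over all genes tested in both. For 4n against 2n with Control medium this was opposite in sign to the 0.49 of the chloroplast genes. SIG5, which encodes a sigma factor known to respond to stress and light, had 7.61, 12.9 and 11.2 FPKM in 2n NaCl roots, against 30.9, 30.9 and 21.4 FPKM in 2n Control roots, a log2 fold change of -1.47 (SE 0.26, adjusted p = 0.00462 in edgeR). In 4n roots NaCl against Control gave -0.87 (adjusted p = 0.0612), and the difference between the ploidies, 0.60, had an adjusted p of 0.834. ATPC1, for the γ subunit of the ATP synthase, fell in 4n Control roots to 9.40, 8.83 and 6.07 FPKM, against 20.4, 19.4 and 12.6 FPKM in 2n Control roots (log2 -1.05, adjusted p = 0.0215 in edgeR). NDHO, an NDH subunit, fell with NaCl in 4n roots (log2 -1.49, edgeR adjusted p = 0.0227) and in 2n roots (log2 -1.37, edgeR adjusted p = 0.0412) and was at 0.680 to 4.22 FPKM in all root libraries. The other genes of both lists did not pass the test in any comparison within an organ.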

How the data were processed

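Both organs of neo-tetraploid and diploid plants were sampled with and without NaCl, with 3 libraries per group. According to the methods and the submitters' notes, oligo(dT) beads selected polyadenylated RNA, which was sequenced as short single-end, unstranded reads on a BGI instrument. The authors used HISAT and Bowtie2 to align filtered reads to TAIR10, and RSEM to estimate expected counts per gene. The versions of these tools are not given in the sources used here. The deposited expected counts carry no normalization, and the authors' FPKM values are these counts divided by effective gene length and depth. A gene not listed in a library was set to 0.

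Expected counts were rounded, genes reaching 10 counts in 3 or more libraries of the fit were kept, and edgeR 4.0.16 (R 4.3.3) tested them with TMM scaling and its quasi-likelihood test, in 1 model per organ or over all 24 libraries for the organ comparison. P-values were adjusted by the Benjamini-Hochberg method over all genes tested, and calls had an adjusted p below 0.05 and differed at least 2-fold. The SE is the size of the log2 fold change divided by the square root of F. The scripts were tested on simulated data. Sums and shares over the members carry no test. Intervals of count ratios are exact at 95%, and these and the floor of 3 counts cover counting error only.

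Same-numbered libraries of different shoot groups deviated together (18 of 18 pairs with a correlation above 0.1, mean 0.365), so the numbers were taken to pair the shoot libraries. Of shoot pairs with different numbers 1 of 36 passed that limit. In roots 16 of 18 same-numbered pairs and 0 of 36 others did. The main tests left the numbers out in both organs. A further fit of each test carried the number as a replicate block. Other alternatives were DESeq2 1.42.0, library-size scaling, scaling on nuclear genes, no filter, limma 3.58.1 on log2(FPKM + 1) and on log2(FPKM + 0.1), fits of the compared groups only, no fold threshold, and each library left out in turn.

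Named genes were fixed by role, with the rRNAs, the members with the largest changes among those called and the 5 with the largest shares in each organ. Members, lists and tests were chosen with earlier results of these data known. No sequence or coordinate is given, because the annotation used here is of another assembly version than the files.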

Additional observations from a re-analysis of the deposited data

Results flagged for a closer look

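The 2 copies of rrn4.5S (ATCG00960.1 and ATCG01170.1), which share their reads and are 1 measurement, differed between the ploidies in their response to NaCl in shoots by the DESeq2 test of the interaction: log2 -1.14 for each copy, adjusted p = 0.0162. Each copy had 82.5, 98.5 and 134 counts in 4n NaCl shoots, against 160.5, 152 and 153 in 4n Control shoots, and 176, 198.5 and 210.5 counts in 2n NaCl shoots, against 155, 137.5 and 134 in 2n Control shoots. In edgeR the same interaction was -1.16 (SE 0.21) with an unadjusted p of 0.000188 and an adjusted p of 1.00, and with 1 library left out the edgeR adjusted p was 0.424 or higher.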

How the results depend on the processing

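The organ calls depended little on the processing: with edgeR and 1 library left out, 70 to 71 of 71 members were called in each combination, and 0 named genes reversed under any setting. Of the other settings of the main results, 166 stayed within the limits set, 6 values moved and 4 counts rose. With no fold threshold 2 members (both copies of rrn16S) passed in NaCl against Control 2n roots. With the replicate block 1 member (psbA, log2 1.20, edgeR adjusted p = 0.0402) was called in NaCl against Control 4n roots, and the block changed no other call. In roots 16 of 18 same-numbered pairs had a correlation above 0.1 (mean 0.200), against 0 of 36 pairs with different numbers. DESeq2 called 2 members (both copies of rrn4.5S) in 4n against 2n NaCl shoots and 2 (the same rows) in the shoot interaction. For the make-up of chloroplast counts in 2n Control plants, leaving out 1 library gave 2 to 5 members higher and 19 to 28 lower. Without the rRNA genes, the log2 difference in chloroplast share was 0.30 for 4n against 2n Control shoots, 0.0192 for 4n against 2n NaCl shoots, and for shoots against roots 5.62 in 2n Control, 5.04 in 2n NaCl and 5.58 in 4n Control. By summed FPKM it was 5.27 in 4n Control. The causes were not tested. Depth limits the root values, with 368 to 703 chloroplast counts other than rRNA per library.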
